A study of Mus musculus with 2 samples.

Results

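Lysosome genes, here 32 genes for cathepsins, other acid hydrolases, their cofactors and membrane proteins of the lysosome, were followed across the cell types of the mouse neurohypophysis (NH), the posterior lobe of the pituitary. They were picked by gene symbol, and each of the 32 symbols was found in the count matrices of both samples and in the deposited table of cluster means, out of 27998 genes counted. By role, 12 encode proteases, 8 encode hydrolases of glycans or lipids, 5 encode cofactors or other luminal proteins and 7 encode membrane proteins. The group of 5 (*Psap*, *Npc2*, *Gm2a*, *Grn* and *Creg1*) is called cofactors below for short, though not all of it are cofactors of hydrolases.

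Lysosomes are acidified vesicles that break down proteins, glycans and lipids brought in by endocytosis, phagocytosis and autophagy. Their soluble enzymes are carried from the Golgi by sorting receptors, a proton pump acidifies the lumen, and heavily glycosylated proteins such as Lamp1 line the membrane. Macrophages and microglia are known for a large lysosomal compartment, and in the NH pituicytes and microglia lie beside axon endings loaded with hormone granules.

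NH tissue of male C57BL/6 mice aged 3 months was dissociated and sequenced as single cells on the 10x Genomics Chromium platform (kit version 2). Each of the 2 samples was a pool of 5 mice, and the pools were independent groups of animals in the same untreated condition, so the comparisons run between cell types and not between treatments. The dissection carried over cells of the neighbouring intermediate lobe (IL). The mice within a pool cannot be told apart, and the labels give no single animals.

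After the cell limits of the study, 273 cells of pool 1 and 255 of pool 2 were kept, with medians of 2050.0 and 2330.0 unique molecular identifiers (UMIs) per cell, and 0 barcodes were shared by the pools. The 11 clusters of the authors were recovered for these cells and joined into the 7 cell types of the study. These are macrophage/microglia (95 cells), pituicytes (the resident astroglia, 196 cells), IL cells (148), T-cell like cells (42), epithelial-like cells (23), vascular endothelia (13) and vascular leptomeningeal cells (VLMC, 11). Counts were summed per pool and type into 14 sums of 8491 to 281271 UMIs, and a level in CPM is the UMIs of a gene in every 1000000 UMIs of the sum. In each type every gene of its own marker list was detected. Markers of other cells were present in several types. The VLMC sums held 5 oligodendrocyte markers at 18137 and 17088 CPM, beside 17548 and 7882 CPM of their own 6. The deposited label of this cluster is OPC/LVMC, where OPC stands for oligodendrocyte precursor cell, and VLMC is the name of the type in the study. Sums over these 11 cells cannot show whether single cells carry both sets. In epithelial-like cells the 5 anterior lobe endocrine markers summed to 35202 CPM in pool 1 and 2013 in pool 2, with *Tshb* at 0. Their own markers summed to 5643 and 4721 CPM. Pituicytes held the 5 IL markers at 4307 and 3598 CPM. In IL cells the anterior lobe markers summed to 149 and 9361 CPM, with *Lhb* and *Fshb* at 0. T-cell like cells held natural killer (NK) cell markers at 273 and 206 CPM. Endothelia held pericyte markers at 1322 and 721 CPM, anterior lobe markers at 2292 and 240 CPM and T-cell markers at 793 and 0 CPM. What these add to the lysosome levels was not tested. The 8 macrophage identity genes (*C1qa*, *C1qb*, *C1qc*, *Cx3cr1*, *Csf1r*, *Tyrobp*, *Fcer1g*, *Aif1*) summed to 24958 and 22417 CPM in macrophage/microglia of pools 1 and 2 against at most 721 CPM in any sum of another type. Because a UMI marks an mRNA molecule at its end, a level is not scaled by gene length, and CPM values of different genes can be set side by side.

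Many lysosome genes carry the E-box CACGTG near their start, a word bound by basic helix-loop-helix factors of the Tfeb family. RefSeq promoter windows (build GRCm38.p6, 250 bases before to 50 bases after an annotated start) matched 28 of the 32 genes by symbol. The E-box, which reads the same on both strands, occurred in 9 of the 28 (32.1%) and in 8.09% of the 27025 genes with a window. With the longer word TCACGTG, which contains the E-box and was searched on both strands, it was 7 of 28 (25%) against 4.29%. The palindrome GTCACGTGAC was found in 0 of 28 and in 0.370% of all genes. The 9 genes were *Ctsa*, *Ctsd*, *Ctsf*, *Ctsl*, *Lamp1*, *Gla*, *Glb1*, *Lgmn* and *Naglu*. A gene was counted where any of its windows held the word, and the other annotated window of *Ctsa* and of *Lgmn* did not. A match is a word in these letters and was not tested for binding. The windows of *Lamp1* (the most E-boxes of the 28), *Ctsa* and *Ctsd*, beside *Ctss*, the gene with the largest fold change in macrophage/microglia and no E-box in its window, are printed 5′ to 3′ on the strand of the gene, with the E-box and its flanking T or A in capitals:
*Lamp1*, chr8:13158911-13159210, plus strand: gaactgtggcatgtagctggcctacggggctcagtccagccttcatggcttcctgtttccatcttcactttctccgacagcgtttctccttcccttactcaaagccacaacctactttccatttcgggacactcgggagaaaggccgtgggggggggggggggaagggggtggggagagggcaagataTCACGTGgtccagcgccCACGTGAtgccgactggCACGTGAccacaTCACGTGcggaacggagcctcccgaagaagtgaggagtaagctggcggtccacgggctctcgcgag
*Ctsa*, chr2:164833523-164833822, plus strand: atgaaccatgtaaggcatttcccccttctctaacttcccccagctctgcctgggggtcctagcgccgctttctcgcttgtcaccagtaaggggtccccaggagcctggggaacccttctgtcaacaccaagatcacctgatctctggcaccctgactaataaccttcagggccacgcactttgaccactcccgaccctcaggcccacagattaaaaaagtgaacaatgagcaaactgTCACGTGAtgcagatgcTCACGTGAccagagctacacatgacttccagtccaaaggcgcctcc
*Ctsd*, chr7:142387778-142388077, minus strand: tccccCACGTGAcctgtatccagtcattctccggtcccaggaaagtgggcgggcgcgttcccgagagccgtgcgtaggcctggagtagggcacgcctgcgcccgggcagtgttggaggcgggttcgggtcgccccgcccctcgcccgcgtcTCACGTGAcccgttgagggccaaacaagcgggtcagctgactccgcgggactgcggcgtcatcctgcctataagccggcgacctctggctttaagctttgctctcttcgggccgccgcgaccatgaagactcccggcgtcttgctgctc
*Ctss*, chr3:95526536-95526835, plus strand: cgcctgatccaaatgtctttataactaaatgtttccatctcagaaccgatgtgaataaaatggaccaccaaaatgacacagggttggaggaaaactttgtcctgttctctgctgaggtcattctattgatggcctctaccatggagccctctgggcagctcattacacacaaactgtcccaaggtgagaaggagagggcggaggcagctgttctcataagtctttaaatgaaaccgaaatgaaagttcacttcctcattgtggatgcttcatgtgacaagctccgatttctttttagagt

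In *Lamp1* the 4 E-boxes begin 61, 45, 28 and 15 bases before the start. In *Ctsd* they begin 245 and 98 bases before it. In *Ctsa* a first E-box begins 12 bases before the start and a second just after it. The genes with the word did not share a level: *Ctsd* was the most abundant of the 32 genes in macrophage/microglia, whereas *Gla* and *Glb1* had 29 and 21 UMIs over all cells.

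Macrophage/microglia held by far the most lysosome mRNA of the cells captured. The 32 genes took 2.40% of the UMIs of this type in pool 1 and 2.44% in pool 2 (2.42% ± 0.0293, SD, n = 2 pools), from 4767 UMIs. Pituicytes followed at 0.494% and 0.514%, epithelial-like cells at 0.513% and 0.408%, and VLMC at 0.565% and 0.351%. Vascular endothelia gave 0.264% and 0.288%, IL cells 0.225% and 0.235%, and T-cell like cells 0.188% and 0.182%. Both macrophage/microglia sums lay above all 12 others. Pituicytes lay above IL cells, T-cell like cells and endothelia in both pools, and overlapped epithelial-like cells and VLMC, whose 2 pools lay further apart. Over all cells kept the share was 0.639%.

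**Figure D1:**
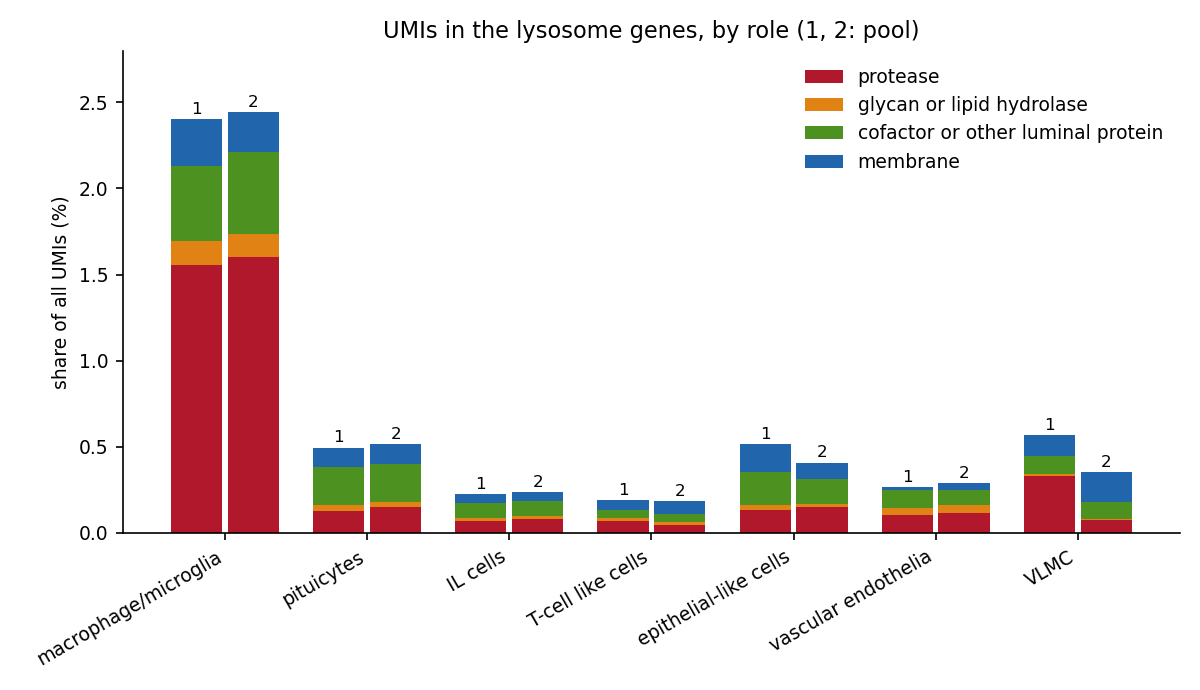
Share of all UMIs of a cell type that fell in the 32 lysosome genes (y axis, percent, from 0), stacked by role, with a bar for pool 1 and a bar for pool 2 of each of the 7 cell types. The bars of macrophage/microglia reach 2.40% and 2.44%, and no other bar passes 0.565%.

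Single cells within a type varied as well. In macrophage/microglia the share ran from 0.583% over a median of 2.296% to 5.42% among the 41 cells of pool 1, and from 0.281% over 2.41% to 5.63% among the 54 cells of pool 2. In pituicytes it ran from 0 over 0.484% to 1.30% in pool 1 and from 0.0573% over 0.526% to 2.49% in pool 2. The lower quartiles of the macrophage/microglia cells, 1.75% and 1.85%, lay above the highest pituicyte of pool 1 and below that of pool 2. When cells were clustered anew without lysosome genes, 2 pituicytes fell in the macrophage/microglia group. Whether the highest pituicyte of pool 2 was among them was not checked.

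The roles took unequal parts of the total. In macrophage/microglia the 12 protease genes held 1.56% and 1.60% of all UMIs, the 5 cofactor genes 0.440% and 0.474%, the 7 membrane genes 0.270% and 0.233%, and the 8 hydrolase genes 0.138% and 0.133%. In pituicytes the cofactors came first with 0.218% and 0.224%, before the proteases with 0.129% and 0.147% and the membrane genes with 0.113% and 0.114%. *Ctsd* and *Ctss* alone accounted for much of the macrophage/microglia value: without both, the share was 1.61% and 1.61% there and 0.482% and 0.497% in pituicytes.

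By level, 22 of the 32 genes were highest in macrophage/microglia over both pools. Of the 27 lysosome genes tested below, 21 were, beside 490 of all 4510 tested genes (10.8%). Taken by pool, 25 of the 32 were highest there in pool 1, 21 in pool 2 and 20 in both. In 17 genes both macrophage/microglia sums lay above every sum of the other types, a pattern that 5.23% of the 4510 tested genes showed. The other 10 genes were highest elsewhere: *Cd63* and *Npc1* in epithelial-like cells, *Ctsf*, *Gla* and *Naglu* in endothelia, *Glb1* in pituicytes, and *Ctsk*, *Ctsl*, *Lamp2* and *Scarb2* in VLMC. Most of these orders rest on few UMIs, since a single UMI is worth 66.2 to 118 CPM in the VLMC sums and 80.1 to 88.1 CPM in the endothelial sums. 12 of the 32 genes had a UMI in all 7 types.

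**Figure D2:**
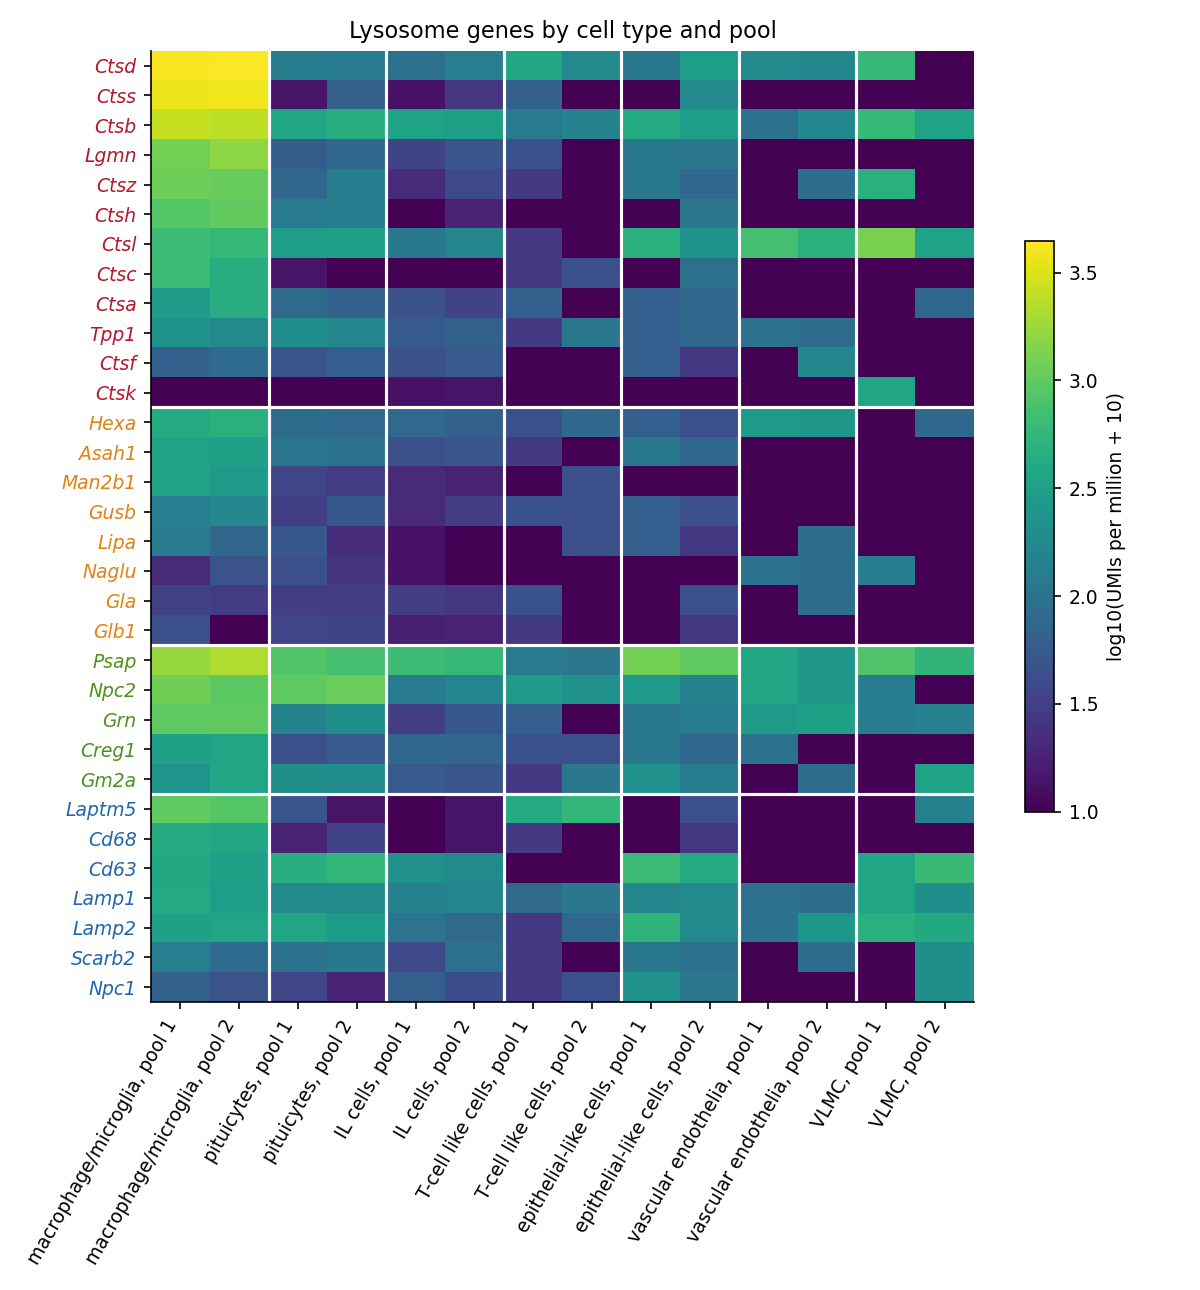
Level of each of the 32 lysosome genes (rows, grouped by role and ordered by their level in macrophage/microglia) in the 14 sums of cell type and pool (columns). Colour gives log10 of CPM plus 10, from dark (0 CPM) to yellow (the highest levels). The pair of macrophage/microglia columns is the brightest for 17 rows in both pools.

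Differences between types were tested with edgeR's quasi-likelihood test on the 14 sums, over the 4510 genes that passed a filter on low counts. Of the 32 lysosome genes 27 passed it. *Ctsk*, *Ctsf*, *Lipa*, *Gla* and *Glb1* did not pass it and were not tested. The filter works on the level in the sums, so a gene could pass through few UMIs in the small types. *Naglu*, with 21 UMIs over all cells, was tested, whereas *Ctsf*, with 61, was not. A gene could pass through the type in which it is high, so the counts of calls describe the tested genes only. A gene was called where its natural log (ln) fold change reached 1 in size and its p, adjusted by the method of Benjamini and Hochberg, did not pass 0.05, which are the limits the study set. Fitted values are ln fold changes ± SE throughout. The SE was derived as the size of the fold change divided by the square root of the F statistic of the test. It is therefore approximate, and less to be relied on where whole types held 0 UMIs of a gene. The p-values rest on a spread between the 2 pools that was estimated over all 7 types together and moderated across genes. A very small p is therefore no measure of the spread of that gene between the pools of a single type. The authors cut the clusters from the same cells with variable genes that may include lysosome genes, and *Ctss* is among the genes the study names for macrophage/microglia, so that the types are not independent of these genes. Cells clustered anew with all lysosome genes left out gave a macrophage/microglia group that held 94 of the 95 cells, and 27 of 29 tested genes were then called higher in it against the mean of the other 3 types it could name, where 11.8% of all genes tested in that fit were called higher and 2.07% lower.

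Against the mean of the other 6 types, 24 of the 27 tested lysosome genes were called higher in macrophage/microglia and 0 were called lower. Among all genes tested 16.5% were called higher and 1.18% lower. The median ln fold change was 2.65 over the 27 genes and 0.29 over all. All 10 tested proteases, all 5 cofactors, 4 of 5 hydrolases and 5 of 7 membrane genes were called. With library size in place of trimmed-mean (TMM) scaling the values of all genes moved by a median of -0.37 (ln). *Lamp1* and *Lamp2* then stood at 0.86 and 0.71, below the limit, and the part of all called genes that were higher went from 93.4% to 80.9%. DESeq2 lost the same calls, with *Lamp1* at 0.97 and *Lamp2* at 0.79 (adjusted p = 0.116 for *Lamp2*).

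The 6 largest fold changes among called genes were those of *Ctss*, *Ctsh*, *Ctsc*, *Lgmn*, *Cd68* and *Man2b1*. *Ctss* (chr3:95526786-95556403), the protease that trims the invariant chain of MHC class II, had 3744 and 3883 CPM in macrophage/microglia. It had 4.24 and 55.2 CPM in pituicytes, 3.56 and 16.03 in IL cells, 54.6 and 0 in T-cell like cells, 0 and 169 in epithelial-like cells, and 0 in all endothelial and VLMC sums. The groups did not overlap (ln fold change 5.97 ± 0.24 SE, adjusted p = 1.97e-133).

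*Ctsh* (chr9:90054152-90076089), an aminopeptidase, had 857 and 1010.1 CPM in macrophage/microglia and 110.3 and 122 CPM in pituicytes. It had 0 and 8.01 CPM in IL cells, 0 and 102 in epithelial-like cells, and 0 in T-cell like cells, endothelia and VLMC. It was thus present in macrophage/microglia and, at a lower level, in pituicytes of both pools (5.12 ± 0.32, adjusted p = 1.76e-55). *Ctsc* (chr7:88278085-88310888), the dipeptidyl peptidase that activates serine proteases of immune cells, had 620.3 and 436 CPM in macrophage/microglia. It was absent or nearly so from pituicytes, with 1 UMI in all, and from IL cells with 0, and had 2 UMIs in T-cell like cells and 5 in epithelial-like cells of pool 2 (4.91 ± 0.36, adjusted p = 2.40e-41).

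*Lgmn* (chr12:102394084-102439813), the asparagine-specific endopeptidase that also processes cathepsins, had 1218 and 1548 CPM in macrophage/microglia, 50.9 and 67.1 in pituicytes, and 24.9 and 40.1 in IL cells. T-cell like cells gave 36.4 and 0 CPM, epithelial-like cells 104 and 102, and endothelia and VLMC 0. No other sum came near those of macrophage/microglia (4.76 ± 0.27, adjusted p = 7.88e-68). *Cd68* (chr11:69664213-69666153), a Lamp-family protein used to stain macrophages, had 417 and 379.9 CPM there. It had 8.49 and 23.7 CPM in pituicytes and at most 18.2 CPM in any other sum (4.55 ± 0.38, adjusted p = 5.73e-31). *Man2b1* (chr8:85083270-85098282), which removes mannose from glycoproteins, had 327 and 278 CPM there, 25.5 and 19.7 in pituicytes and at most 34.4 in any other sum (4.39 ± 0.44, adjusted p = 2.19e-21). The size of these folds depends in part on the prior count of edgeR, because the small types held 0 UMIs of several of the genes.

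The most abundant lysosome mRNA of macrophage/microglia was not the one with the largest fold. *Ctsd*, the main aspartic protease of lysosomes, had 4162 and 4420.4 CPM in macrophage/microglia, above *Ctss*. *Ctsb*, a cysteine protease, had 2605 and 2400.1 CPM, and *Psap*, the precursor of the saposins that present lipids to hydrolases, 1714 and 2113. Both were found in every type, with *Ctsb* at 352 and 438 CPM and *Psap* at 836 and 718 CPM in pituicytes. Their ln fold changes against the mean were 3.56 for *Ctsd*, 2.64 for *Ctsb* and 1.78 for *Psap*. The remaining called genes lay between 1.10 (*Lamp2*) and 4.05 (*Laptm5*), and the 3 genes not called were *Naglu* (1.42, adjusted p = 0.219), *Scarb2* (0.89, adjusted p = 0.0962, and called at 1.09 with the new clustering) and *Npc1* (0.80, adjusted p = 0.494).

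The direct comparison with pituicytes gave fewer calls. It sets only these 2 types against each other, though the spread, the scaling and the filter still came from all 14 sums. Of the 27 tested, 17 were called higher in macrophage/microglia and 0 lower, where 13.8% of all tested genes were called higher and 13.4% lower. The median ln fold change was 1.87, against -0.12 over all genes. Called were 8 of 10 proteases and 4 of 5 hydrolases, but 3 of 5 cofactors and 2 of 7 membrane genes. Whether the roles differ was not tested.

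The largest differences were in *Ctsc* (5.21 ± 0.44, adjusted p = 6.83e-30), *Ctss* (4.94 ± 0.33, adjusted p = 1.10e-47), *Laptm5* (3.89 ± 0.32, adjusted p = 2.00e-32) and *Ctsd* (3.75 ± 0.29, adjusted p = 3.51e-35). With its single pituicyte UMI, the pooled ratio for *Ctsc* was 254 with an exact counting interval of 44.5 to 10122. *Ctsd* stood at 119 and 110.5 CPM in pituicytes, about the level it had in IL cells (81.8 and 124). *Psap* was called at 1.04 ± 0.24 (adjusted p = 1.14e-04) and lay below the fold limit, at 0.86 to 0.95, with library size, DESeq2, no filter on low counts or cells under 10% mitochondrial UMIs.

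Of the 10 genes not called, several had much the same level in pituicytes and macrophage/microglia. *Npc2*, the soluble protein that hands cholesterol to Npc1, had 1184 and 936 CPM in macrophage/microglia and 968 and 1089 in pituicytes, so that the ranges overlapped (0.16 ± 0.23, adjusted p = 0.638). *Cd63*, a tetraspanin of late endosomes and secretory granules, had 395 and 306 CPM against 449.8 and 552 in pituicytes (-0.22 ± 0.25, adjusted p = 0.541). *Lamp2*, which also serves chaperone-mediated autophagy, had 316 and 361 CPM against 348 and 264 (0.24 ± 0.25, adjusted p = 0.507). In *Cd63* both pituicyte sums lay above both macrophage/microglia sums, and in *Lamp2* the ranges overlapped.

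*Tpp1*, a tripeptidyl peptidase, had 214 and 176 CPM against 187 and 149.9 (0.28 ± 0.28, adjusted p = 0.50). *Gm2a*, the activator that lifts ganglioside GM2 to hexosaminidase, had 226 and 352 against 199 and 185 (0.56 ± 0.26, adjusted p = 0.0826), and *Scarb2*, the carrier of glucocerebrosidase, 124 and 74.1 against 89.1 and 107 (0.13 ± 0.34, adjusted p = 0.828). *Tpp1* and *Scarb2* overlapped between the types, and *Gm2a* did not. *Ctsl* (0.87 ± 0.24, adjusted p = 0.00161) and *Lamp1* (0.80 ± 0.25, adjusted p = 0.00717) passed the p but not the fold limit, and with cells under 10% mitochondrial UMIs both were called, at 1.02 and 1.21. *Npc1* (1.12 ± 0.58, adjusted p = 0.135) and *Naglu* (0.16 ± 0.67, adjusted p = 0.898) rested on 17 UMIs each in the 2 types together. The values of all genes moved by a median of -0.18 (ln) with library size in place of TMM, and *Npc2*, *Scarb2* and *Naglu* then stood at -0.0155, -0.052 and -0.017, so their direction is not set by these data. *Gm2a* stood at -0.024 with cells under 10% mitochondrial UMIs and at 1.07, past the limits, with the new clustering.

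**Figure D3:**
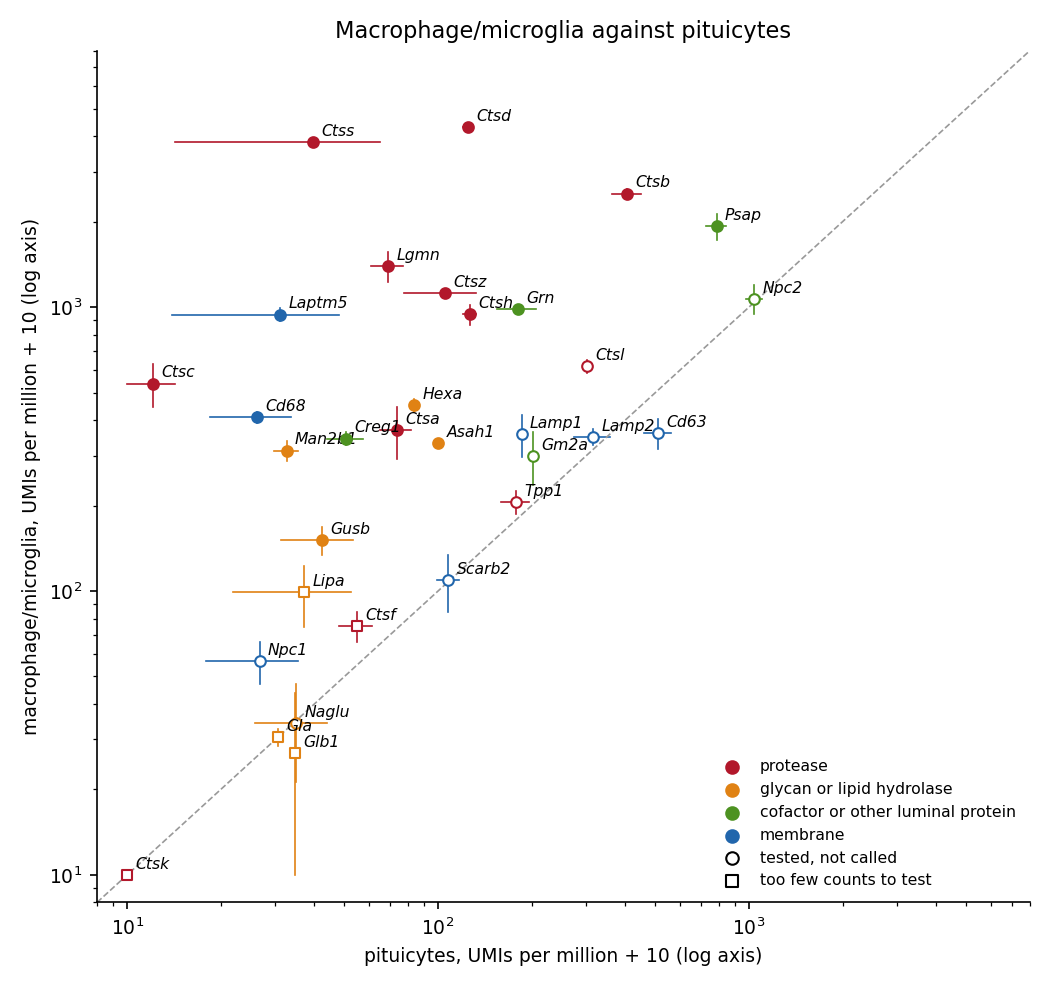
Level of each lysosome gene in pituicytes (x axis) and macrophage/microglia (y axis), in CPM plus 10 on log axes, coloured by role. Points are the mean of the 2 pools and lines join the pools, filled points were called higher in macrophage/microglia, open circles were tested and not called, squares were not tested, and the dashed line marks equal levels. *Ctsc*, *Ctss* and *Laptm5* lie far above the line, and *Npc2*, *Lamp2*, *Scarb2* and *Tpp1* lie close to it.

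Against IL cells, 22 of the 27 were called higher in macrophage/microglia and 0 lower (15.4% and 13.3% of all genes). The median ln fold change was 2.18 against -0.13 over all genes. All 10 tested proteases and all 5 cofactors were called. *Ctsc* had 0 UMIs in IL cells and was at least 91.8-fold higher in macrophage/microglia at a floor of 3 counts over both pools, *Laptm5* had 1 UMI there (ratio 491, exact interval 87.1 to 19516) and *Ctsh* 2 UMIs (ratio 250, exact interval 68.2 to 2078). Not called were *Lamp1* (0.92), *Cd63* (0.65), *Scarb2* (0.62), *Npc1* (0.12) and *Naglu* (2.23), of which *Lamp1* (adjusted p = 0.00191) and *Cd63* (adjusted p = 0.0390) passed the p but not the fold limit.

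Against T-cell like cells it was again 22 of 27 higher and 0 lower (8.45% and 2.46% of all genes), with a median of 3.04 against 0.23. *Laptm5*, a lysosomal membrane protein of blood cells that lowers antigen receptor levels, was the exception in level: it had 981 and 880.4 CPM in macrophage/microglia and 401 and 550.1 in T-cell like cells (0.87 ± 0.27, adjusted p = 0.0129), below the fold limit. Both types carried it and the other sums held at most 132 CPM. *Cd63*, by contrast, had 0 UMIs in both T-cell like sums, which made it at least 9.69-fold higher in macrophage/microglia. *Ctsh* also had 0 UMIs there, at least 26.4-fold below macrophage/microglia. *Gusb* (1.52, adjusted p = 0.0901), *Scarb2* (2.17, adjusted p = 0.0580), *Npc1* (0.79, adjusted p = 0.649) and *Naglu* (3.21, adjusted p = 0.341) were not called.

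By mean level, pituicytes came second to macrophage/microglia in several lysosome genes, among them *Ctsh*, *Npc2* and *Tpp1*. Against the mean of the other types, 5 of the 27 were called higher and 0 lower. Among all genes 16.8% were called higher and 0.953% lower, so the number of lysosome genes called is near the share of all genes. The median was 0.74 against 0.41 over all genes. The 5 were *Ctsh* (2.53 ± 0.53, adjusted p = 2.58e-05), *Cd63* (2.32 ± 0.34, adjusted p = 1.78e-10), *Npc2* (1.81 ± 0.20, adjusted p = 1.65e-17), *Asah1*, the acid ceramidase (1.72 ± 0.55, adjusted p = 0.0122), and *Tpp1* (1.58 ± 0.37, adjusted p = 1.79e-04). DESeq2 called 3 of them, leaving out *Asah1* and *Tpp1*, and the same 2 genes were also lost with cells under 10% mitochondrial UMIs or with the new clustering. In *Cd63* the 0 UMIs of T-cell like cells and endothelia enter the mean of the other types. In *Ctsh* those of T-cell like cells, endothelia and VLMC do. Its mean of 116 CPM in pituicytes lay below the level of 3 counts over both pools in VLMC (127 CPM) and endothelia (126 CPM).

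Set directly against IL cells, 9 of the 27 were called higher in pituicytes and 0 lower, and 10.0% and 6.72% of all genes were. The median was 0.77 over the lysosome genes and 0.00 over all. *Ctsh* differed most, with 110.3 and 122 CPM in pituicytes against 0 and 8.01 (3.10 ± 0.48, adjusted p = 2.37e-09). *Npc2* had 968 and 1089 CPM against 110.2 and 148 (1.99 ± 0.25, adjusted p = 1.46e-13). *Lamp2* had 348 and 264 CPM against 92.4 and 72.1 (1.22 ± 0.26, adjusted p = 2.44e-05). In each of the 3 both pituicyte sums lay above both IL sums. That is a description and no further support, since the genes were called on these same sums. The share of all genes without overlap was not counted.

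*Gm2a* followed with 199 and 185 CPM against 46.2 and 40.1 (1.39 ± 0.29, adjusted p = 2.04e-05), as did *Tpp1* with 187 and 149.9 against 46.2 and 56.1 (1.10 ± 0.29, adjusted p = 0.00125). *Grn*, which encodes progranulin, had 144 and 197 against 21.3 and 44.1 (1.56 ± 0.32, adjusted p = 1.13e-05), and *Ctsz*, a carboxypeptidase, 67.9 and 122 against 10.7 and 28.1 (1.49 ± 0.37, adjusted p = 6.27e-04). The ranges of these 4 genes, called on the same sums, did not overlap either. *Laptm5* (1.90 ± 0.72, adjusted p = 0.0407) and *Naglu* (2.07 ± 0.80, adjusted p = 0.0456) rested on 11 and 13 UMIs in both types together. *Laptm5* was not called with DESeq2, no filter, the new clustering, cells under 10% mitochondrial UMIs or without Scrublet-marked cells (adjusted p = 0.0509 to 0.328). With the pool as a block, the adjusted p of *Naglu* was 0.0680 and 8 genes were called. DESeq2 called 5 and gave *Naglu* no adjusted p, and cells under 10% mitochondrial UMIs gave 3.

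Within pituicytes the 3 clusters of the authors had much the same total. The share was 0.496% and 0.522% in cluster a, 0.463% and 0.514% in cluster b, and 0.510% and 0.494% in cluster c. *Cd63* was 608 and 642 CPM in cluster a, 441 and 576 in b and 353 and 319 in c. *Psap* was 593 and 629 in a, 849 and 865 in b and 985 and 844 in c. *Cd63* did not overlap between the clusters, and *Psap* was lower in a than in b or c, which overlapped. How many of all genes separate in this way was not counted. IL markers summed to 14307 and 20960.0 CPM in b against 666 and 583 in a, and macrophage identity genes to 195 and 988 CPM in c, and their part was not tested. No test was made because the clusters were cut from the same cells.

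The 8 macrophage identity genes were also read in the other types. In pituicytes they reached at most 1.56% of their macrophage/microglia level in pool 1 and 3.78% in pool 2. Of the lysosome genes detected in macrophage/microglia, 29 of 31 in pool 1 and 26 of 30 in pool 2 lay above the highest of the 8, with medians of 28.5% and 20.6%. In IL cells it was 26 of 31 and 23 of 30. In T-cell like cells, where the identity genes reached 9.65% and 13.2%, it was 10 of 31 and 10 of 30. Those limits were set by *Tyrobp* (9.65% and 7.62%) and *Fcer1g* (6.82% and 13.2%). No other identity gene passed 1.54% in pool 1 or 4.52% in pool 2. T-cell like cells also held NK cell markers, and whether their *Tyrobp* and *Fcer1g* came from macrophages was not tested. The 8 were chosen as markers of macrophage/microglia, and the ratio was not taken for other genes. The counts therefore do not set lysosome genes apart from other genes. How much of a level in another type came from macrophage mRNA was not tested. *Ctss* in pituicytes, at 0.113% and 1.42% of its macrophage/microglia level, lay within the range of the identity genes. *Ctsc*, at 0.684% and 0, lay within that range in pool 1 and below its lowest value, 0.320%, in pool 2. *Ctsd*, at 2.86% and 2.50%, lay above that range in pool 1 and within it in pool 2.

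**Figure D4:**
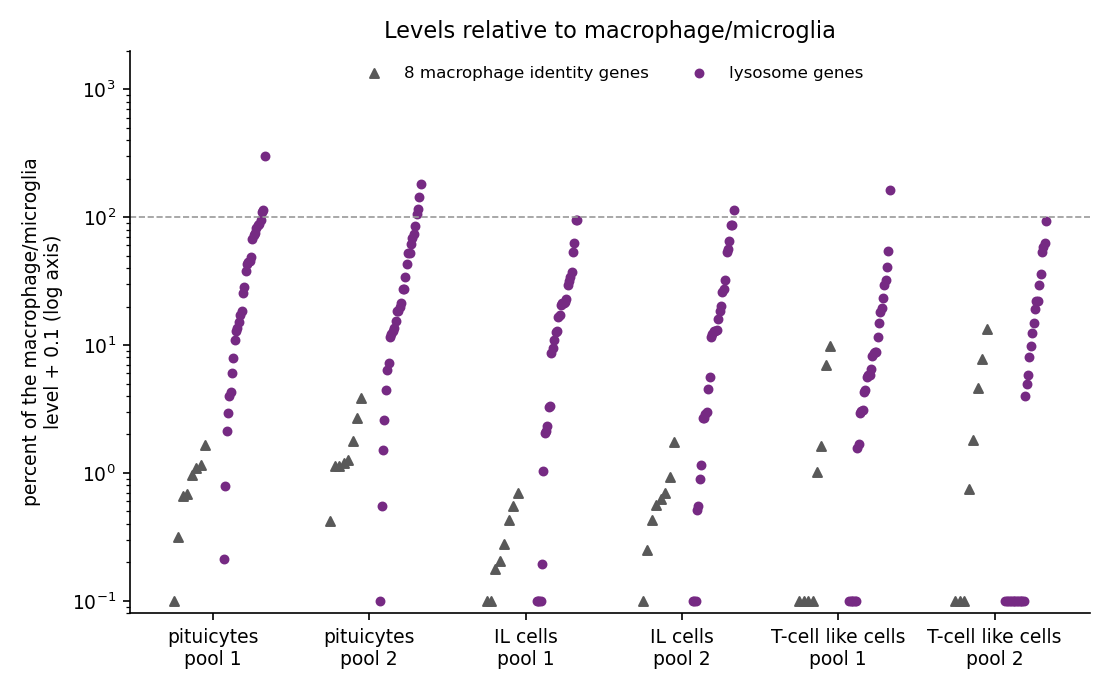
Level of each gene in pituicytes, IL cells and T-cell like cells as a percent of its level in macrophage/microglia of the same pool (y axis, percent plus 0.1, log axis). Triangles are the 8 macrophage identity genes and circles the lysosome genes detected in macrophage/microglia, ordered by value, and the dashed line marks equal levels. In pituicytes the triangles end at 1.56% and 3.78%, below most circles.

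Free RNA in the droplets carried lysosome mRNA too. Among pool 1 droplets too poor for a cell (1 to 50 UMIs each), *Ctss* stood at 304 CPM, *Ctsd* at 319 and *Cd63* at 177. A level in these droplets is not the level that free RNA adds to a cell, because free RNA is only a part of the UMIs of a cell. That part was estimated at 6.10% in cells of pool 1 and 5.19% in pool 2, with the droplets of pool 1 used for both. A *Ctss* UMI was found in 95.8% of macrophage/microglia cells (exact 95% interval 89.6 to 98.8), 4.08% of pituicytes (1.78 to 7.88) and 3.38% of IL cells (1.11 to 7.71). After thinning each cell to 1000 UMIs, those shares were 91.6%, 1.02% and 0. For *Npc2*, thinned shares were 52.6% of macrophage/microglia cells (42.1 to 63.0), 62.2% of pituicytes (55.1 to 69.1) and 10.8% of IL cells (6.31 to 17.0). The intervals cover counting error only.

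The remaining types gave few calls. In epithelial-like cells *Cd63* was called higher, with 621 and 406 CPM (2.00 ± 0.45, adjusted p = 2.76e-04), 1 of 27 where 8.0% of all genes were called higher and 0.155% lower. The 0 UMIs of *Cd63* in T-cell like cells and endothelia enter the mean of the other types here too. In T-cell like cells *Laptm5* was called higher (3.03 ± 0.38, adjusted p = 4.85e-14; 9.47% of all genes) and *Ctsl*, *Psap*, *Lamp2* and *Ctsb* lower (2.75% of all genes). *Ctsl*, a cysteine protease also active in other compartments, had 18.2 and 0 CPM there, and *Psap* 109 and 103. Both lay below the same gene in every other sum.

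In IL cells *Cd63* was called higher (1.30 ± 0.47, adjusted p = 0.0253; 16.9% of all genes) although its 209.8 and 172 CPM were below its level in 4 other types. The call rests on the 0 UMIs of T-cell like cells and endothelia, and it was lost with library size (1.13, adjusted p = 0.143), with DESeq2 (0.60, adjusted p = 0.233) and with the new clustering (1.35, adjusted p = 0.0560). *Grn* (-1.36 ± 0.34, adjusted p = 5.50e-04) and *Ctsz* (-1.29 ± 0.48, adjusted p = 0.0344) were called lower (2.06% of all genes). Cells under 10% mitochondrial UMIs left neither of the latter called.

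Endothelia had 0 genes called higher and 2 lower, *Psap* and *Ctsb* (3.41% and 0.554% of all genes), and VLMC 0 higher and 1 lower, *Npc2* (2.88% and 1.55%). Library size or DESeq2 left none of these 3. *Ctsl* had 705 and 480.5 CPM in endothelia and 1295 and 331 in VLMC, from 14 and 16 UMIs, and *Ctsb* 589 and 331 in VLMC. *Ctsl* was the higher of the pair in VLMC of pool 1 and level with *Ctsb* in pool 2, in sums that also held the oligodendrocyte markers. The endothelial values overlapped those of macrophage/microglia (643 and 575). *Ctsk*, the collagen-cleaving cathepsin of osteoclasts and fibroblasts, had 353 CPM in VLMC of pool 1 and 0 in pool 2, from 3 UMIs, so its place at the top of the VLMC is a matter of 3 molecules. Among these 11 and 13 cells, a gene at 0 has a limit of 199 to 353 CPM at 3 counts.

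The macrophage/microglia type joined 2 clusters of the authors that differed in lysosome mRNA. Cluster microglia a held 27 and 42 cells and a share of 2.55% and 2.72%, and cluster microglia b 14 and 12 cells and 2.22% and 1.48%. The 6 microglia markers summed to 3044 and 2643 CPM in cluster a and to 806 and 1003 in cluster b. The 7 border macrophage markers summed to 347 and 250.1 CPM in a and to 1108 and 836 in b, and the 5 dendritic cell markers to 0 in a and to 201 and 794 in b. Cluster b thus carried markers of other myeloid cells, whose part in its lysosome levels was not tested.

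*Lgmn* was 1594 and 1774 CPM in cluster a and 755 and 752 in b. *Ctsl* was 879 and 714 against 352 and 83.6, and *Grn* 1185 and 1072 against 679.7 and 710.5. All 3, given as examples, were higher in a without overlap. The share of all genes that separate the clusters in this way was not counted. *Gm2a* went the other way, with 184 and 238 CPM in a and 277 and 752 in b. *Ctsd* was 4617 and 5334 in a, and the pools of b lay far apart at 3599.9 and 1212. *Ctss* overlapped, with 3637 and 4370.0 against 3877 and 2173. These are descriptions of clusters cut from the same cells, with no test. Without cluster b the share of the type was 2.64%, *Lamp2* (0.93) fell under the fold limit against the mean, and *Ctsl* passed it against pituicytes (1.07, adjusted p = 9.34e-05).

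**Figure D5:**
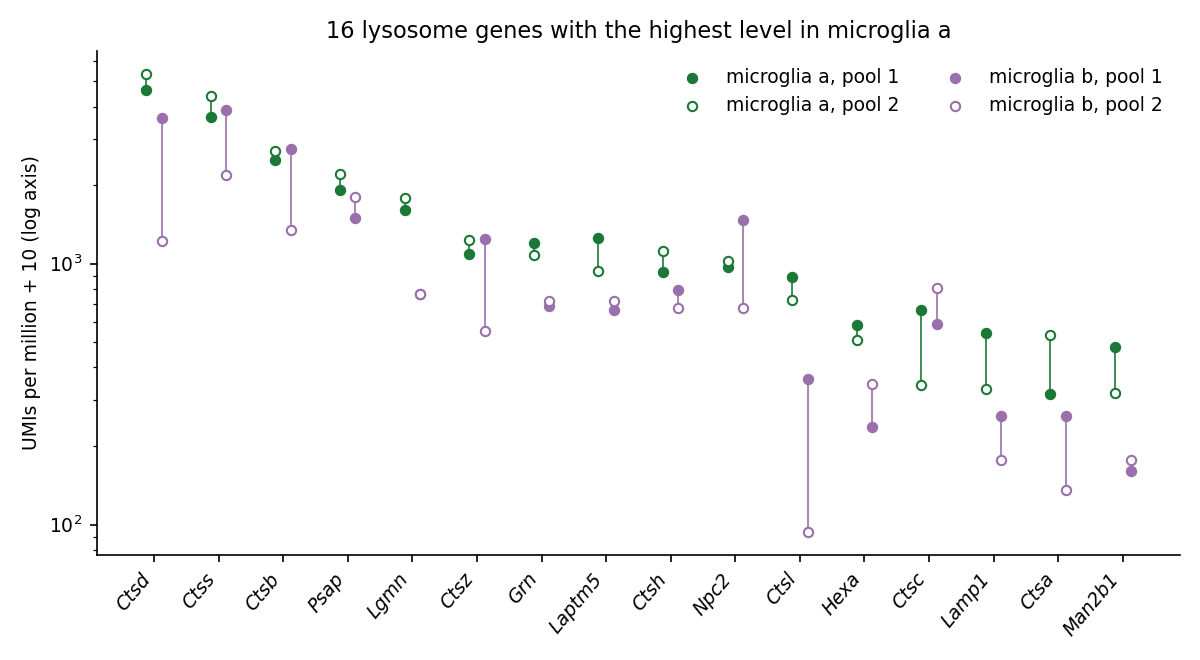
Level (y axis, CPM plus 10, log axis) of the 16 lysosome genes most abundant in cluster microglia a, in clusters microglia a and b of macrophage/microglia. Filled and open points are pools 1 and 2, joined by a line. *Lgmn*, *Grn*, *Ctsl* and *Man2b1* are higher in cluster a in both pools, and the pools of cluster b lie far apart for *Ctsd* and *Ctsl*.

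The wider machinery of the lysosome was read from 7 further lists of 156 genes, of which 79 were tested. In macrophage/microglia against the mean, 24 of the 79 were called higher and 0 lower, beside 16.5% and 1.18% of all genes tested. Other lysosomal enzymes made up 13 of the 24 (of 24 tested), among them *Napsa*, an aspartic protease (4.46), *Ifi30*, a thiol reductase of antigen processing (2.90), and *Prcp*, a carboxypeptidase (2.78). Membrane and transport genes gave 4 of 12, among them *Slc15a3*, a histidine and peptide transporter (5.38), and *Slc11a1*, a metal ion transporter of phagosomes (4.95). Cathepsin inhibitors gave 2 of 5, *Cst3* (3.43) and *Cst7* (3.19). The proton pump gave 2 of 13 (*Tcirg1* at 2.32 and *Atp6v0b* at 1.39), regulators at the lysosome 2 of 7 (*Tfe3* at 2.11 and *Lamtor1* at 1.39), sorting 1 of 11 (*Ap1b1* at 1.74) and autophagy 0 of 7. The list medians ran from -0.23 in autophagy to 1.24 in the enzymes, beside 2.65 over the 27 lysosome genes and 0.29 over all genes.

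In pituicytes 12 of the 79 were called higher and 0 lower, beside 16.8% and 0.953% of all genes, which is near the share of all genes. They included *Gaa*, the acid glucosidase of glycogen (2.62), *Smpd1*, the acid sphingomyelinase (1.78), the calcium channel gene *Tpcn1* (2.09), *Abca2* (2.02) and the pump subunits *Atp6v0b* (1.21), *Atp6v1a* (1.18) and *Atp6v1e1* (1.09). In IL cells 15 of the 79 were called higher and 0 lower, again near the 16.9% and 2.06% of all genes, among them, picked for size after the values were seen, *Pld3* (2.42) and 4 of 13 pump subunits, led by *Atp6v1b2* (2.28) and *Atp6v0a1* (2.19). Proton pumps of this kind also acidify secretory granules. T-cell like cells (9.47% and 2.75% of all genes) had 2 called higher, the cathepsin W gene *Ctsw* (5.68) and *Cst7* (4.51), which encodes a cathepsin inhibitor, and 4 lower (*Cst3*, *Laptm4a*, *Gabarapl1* and *Atp6v0b*).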

How the data were processed

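Neurohypophyses of 2 pools of mice were measured by 10x Genomics single-cell RNA-seq. The deposited UMI counts per gene and barcode were made by the authors with Cell Ranger 2.0.0, forced to 1500 cells, on the mm10 reference, as their methods state. The counts of pool 2 list 1500 barcodes, whereas those of pool 1 list 737280, of which 170936 held a UMI. The authors also deposited a score for each gene and cluster, the mean normalized expression in 11 clusters made with Seurat 2.3, which served here only to recover cluster membership: 336 of 14999 matched genes were off by more than 0.05, and 1 lysosome gene was, by up to 0.132. Cells had over 1000 and under 10000 UMIs, over 400 and under 5000 genes and under 25% mitochondrial UMIs. They were not filtered for doublets. Scrublet marked 5 cells, which were left out as an alternative.

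Counts were summed per pool and cell type and fitted with edgeR 4.0.16 (R 4.3.3), with TMM scaling, filterByExpr set to 5 counts and 15 in total, and the quasi-likelihood test over 4510 genes in 14 sums (7 residual degrees of freedom). P-values were adjusted over all genes tested. The mean of the other types weighed each type equally. Because all 7 sums of a pool hold RNA of the same 5 mice, the pool number pairs them. Deviations from the type means correlated between types at -0.0228 to 0.102 over 21 pairs of types, and the pool as a block was an alternative. The fit was tested on simulated data. Levels in CPM, shares, Clopper-Pearson intervals at 95% and counting ratios cover counting error only.

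The lysosome genes, the wider lists and the markers were chosen with earlier results of these data known. Full statistics are given for the 6 largest folds among members called higher in macrophage/microglia, for members called higher in another type and, by value, for members not called. For each wider list up to 4 called genes with the largest fold in macrophage/microglia and in pituicytes could be named. Gene coordinates are of GRCm38. Alternatives were library size, DESeq2 1.42.0, no filter, the block, clusters made without lysosome genes (Seurat 5.3.0), under 10% mitochondrial UMIs, no Scrublet-marked cells, subtraction of free RNA (6.10% and 5.19% of UMIs by *Pomc* in immune cells), and, added after seeing the data, no microglia b cluster. Free RNA was profiled in droplets of pool 1 only, and that profile served for the estimate and the subtraction in both pools.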

Additional observations from a re-analysis of the deposited data

Results flagged for a closer look

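Lysosome mRNA also lay outside the cells compared. In pool 1, barcodes with 1 to 50 UMIs held 6268 UMIs of the 32 genes among 1892289 (0.331%), and barcodes with 51 to 1000 UMIs held 6129 among 1563513 (0.392%). The most abundant of the 32 in the first set were *Psap* (402 CPM), *Npc2* (385 CPM) and *Ctsb* (340.3 CPM). Barcodes left out for their mitochondrial share alone gave 0.522% in pool 1 (530 of 101566 UMIs) and 0.379% in pool 2 (191 of 50357 UMIs). All 4 values lay below the 0.639% of the cells kept. They were above the limit that 3 counts allow and come from barcodes that entered no sum of a cell type. Those of pool 1 with 1 to 50 UMIs also gave the free RNA profile subtracted in an alternative fit. The counts of pool 2 list only 1500 barcodes, and no matching set of its barcodes with 1 to 50 UMIs was analysed here.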

How the results depend on the processing

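Under each of 9 alternatives, 114 to 124 of 124 fold changes of lysosome genes could be compared. They cover every tested lysosome gene in macrophage/microglia against the mean and against pituicytes. In all other comparisons they cover only the genes called as reported, where a call can be lost but not gained. Subtracting free RNA left the direction and call of all 124 as they were, and the pool as a block, which changed only the *Naglu* call between pituicytes and IL cells (2.08, adjusted p = 0.0680), 123 of 124. DESeq2 lost 17 calls, cells under 10% mitochondrial UMIs 16, library size 8, no filter 7, the clustering without lysosome genes 6, leaving out Scrublet-marked cells 3 and leaving out microglia b 1. Among the 124, calls were gained in *Ctsl* (1.02) and *Lamp1* (1.21) against pituicytes with cells under 10% mitochondrial UMIs. With the new clustering they were gained in *Gm2a* against pituicytes (1.07) and *Scarb2* against the mean (1.09). Without microglia b a call was gained in *Ctsl* against pituicytes (1.07). Gains in the other comparisons show only in the counts of calls given below. The counts against pituicytes, IL cells and T-cell like cells and the mean, with macrophage/microglia as the higher type, stayed within 1.5 times.

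Direction changed for genes that had not been called between macrophage/microglia and pituicytes: with library size *Scarb2* (-0.052), *Naglu* (-0.017) and *Npc2* (-0.0155), without microglia b *Scarb2* (-0.069), and with cells under 10% mitochondrial UMIs *Gm2a* (-0.024). Pituicytes had 3 genes called higher than the mean with DESeq2 (5 as reported) and 1, 1 and 4 called lower with library size, DESeq2 and the clustering without lysosome genes (0 as reported). Against IL cells they had 5 with DESeq2 and 3 with cells under 10% mitochondrial UMIs (9 as reported). IL cells had 0 higher with library size, DESeq2 or the new clustering (1 as reported), and 5 lower with DESeq2, 1 with no filter, 11 with the new clustering, 0 with cells under 10% mitochondrial UMIs and 1 without Scrublet-marked cells (2 as reported). T-cell like cells had 11 lower with the new clustering and 2 with cells under 10% mitochondrial UMIs (4 as reported). Epithelial-like cells had 0 higher with cells under 10% mitochondrial UMIs and 2 after free RNA was subtracted (1 as reported). Endothelia had 0 lower with library size, DESeq2 or no filter, and 1 with cells under 10% mitochondrial UMIs or without Scrublet-marked cells (2 as reported). VLMC had 2 higher with library size or DESeq2 and 1 without microglia b (0 as reported), and 0 lower with library size, DESeq2 or cells under 10% mitochondrial UMIs (1 as reported). The new clustering named 4 types, so its mean of the other types is over 3, and it could not be run for epithelial-like cells, endothelia and VLMC. The cause of the other changes was not tested.

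The share in macrophage/microglia was 2.51% with cells under 10% mitochondrial UMIs, 2.35% with the new clustering, 2.52% after free RNA was subtracted and 2.64% without microglia b, and that in epithelial-like cells 0.380% with cells under 10% mitochondrial UMIs. Leaving out a pool gave 21 to 25 genes highest in macrophage/microglia and shares of 2.40% to 2.44% there. A single pool leaves no residual degrees of freedom, so these are values with no test. Library size moved the part of called genes that were higher from 89.1% to 78.4% in IL cells, 77.5% to 62.7% in T-cell like cells, 86.0% to 97.5% in endothelia and 65.0% to 93.6% in VLMC, with shifts of -0.25, -0.20, 0.49 and 0.44 (ln) in the values of all genes. Depth limits the small types most, where 1 UMI is worth 66.2 to 118 CPM in VLMC.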
